A study of Homo sapiens with 29 samples.

Results

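Keratins are the intermediate filament proteins of epithelial cells, and the cornified envelope is the cross-linked protein shell of the outermost cells of the skin. Transcripts of both families, and of the desmosome plaque proteins to which keratin filaments attach, were followed in a melanoma cell line through a schedule of BRAF inhibitor treatment and withdrawal. Genes were chosen by their names and by 1 measured value, the count summed over all 29 libraries. The names are keratins (KRT and a number), late cornified envelope genes (LCE), small proline-rich genes (SPRR), IVL, LOR, FLG, DSP, JUP and PKP1 to PKP3, and the sum had to reach 30 counts. Of 92 genes with such names among 60675 in the table, 53 were kept, 26 had 1 to 29 counts and 13 had none. The 53 genes are 32 keratins, 16 envelope genes and 5 desmosome plaque genes. The lowest sums inside the threshold were those of PKP1 (32 counts), SPRR3 (31) and LCE1A (30), and the highest outside it were those of KRT13 (28), KRT77 (23) and KRT19 (17).

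Polyadenylated RNA was sequenced from WM239A, a human line from a metastatic melanoma, in 29 libraries of 10 groups. Untreated cells with overexpressed BRAF-V600E, a mutant form of the kinase that drives the MAP kinase pathway in many melanomas, and cells with the vector alone had 3 libraries each. Further BRAF-V600E libraries come from 20 hours and 7 days (week 1) in 500 nM LGX818, which is encorafenib, an inhibitor of the BRAF kinase (3 libraries each). A continuous arm stayed on drug to week 2, week 3 and week 4 (3, 3 and 2 libraries). An intermittent arm switched every 7 days, with drug withdrawn for week 2, given for week 3 and withdrawn for week 4 (3 libraries each). All drug and off-drug groups carry the BRAF-V600E construct. The promoter that drives it, and whether the cells are 1 clone or a pool, are not given in the sources used here. Untreated cells come from the start alone, so a difference of later weeks from them includes weeks of culture. Whether libraries of a group are separate cultures is not stated, so p-values measure the spread between these libraries, which may be technical.

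Keratin filaments are built from pairs of a type I and a type II keratin, and epithelia differ in the pair they use. KRT8 and KRT18 form the pair of simple, single-layered epithelia, KRT5 and KRT14 that of the basal layer of the epidermis, KRT1 and KRT10 that of its upper layers, and KRT6, KRT16 and KRT17 that of wounded or activated skin. When keratinocytes cornify, involucrin (IVL), loricrin (LOR), SPRR and LCE proteins are cross-linked under the membrane, while filaggrin (FLG) bundles keratin filaments. Desmoplakin (DSP) ties the filaments to the desmosome through plakoglobin (JUP) and plakophilins (PKP). Melanocytes lie among basal keratinocytes but come from the neural crest, and use vimentin as their main intermediate filament.

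The libraries held 22934039 to 35804978 counts. BRAF, the expressed gene, averaged 895 CPM (counts scaled to library size) in untreated BRAF-V600E cells and 40.2 CPM in vector cells. For the week 3 intermittent libraries the column names say off drug and the sample labels on drug, and the label was taken. The ERK-induced phosphatase gene DUSP6 averaged 109 CPM in them, against 658 CPM at week 2 off drug. A set of 4 libraries stood apart from both others of their group in all genes: replicate 3 at week 2 off drug, replicate 3 at week 2 continuous, and replicate 1 of both week 3 groups. The 8 melanocyte markers summed to between 319 and 8247 CPM in every library, so melanocyte transcripts were present in all groups, but single markers diverged. At week 2 continuous SOX10 and S100B averaged 159 and 117 CPM, against 478 and 165 CPM in untreated BRAF-V600E cells. PMEL averaged 2.83 against 647 CPM in these groups, MLANA 5.69 against 380 CPM and MITF 13.7 against 349 CPM. TYR and DCT were lower there too, and TYRP1 was higher (2.5 against 0.169 CPM). Of 12 epithelial markers, EPCAM had counts only at week 3 back on drug (mean 0.031 CPM), CDH1 averaged at most 0.279 CPM, and ESRP1 held most of the sum at 20 hours. Of the 7 that could be tested, 3 were higher and 2 lower at week 2 off drug than at week 1. CLDN4 averaged 1.55 CPM at week 2 off drug (2.92 CPM at week 4 off drug) against 0.118 CPM at week 1, SPINT1 1.14 CPM (1.03 CPM) against 0.0334 CPM, and ST14 0.27 CPM (0.675 CPM) against no count, while ESRP1 and CGN were lower. The epithelial sum was 6.75 to 7.35 CPM at week 2 off drug and 11.3 to 12.8 CPM at week 4 off drug, against 5.47 to 6.15 CPM at week 1 and 81.3 to 93.6 CPM at 20 hours. The 8 squamous keratinocyte markers summed to at most 10.5 CPM in any library, with LY6D at 0 in all groups and DSG3 at 0 in both off-drug groups. Of the 4 tested, COL17A1 (1.09 against 0.0494 CPM) and DSC3 (0.243 against 0.0302 CPM) were higher at week 2 off drug than at week 1, and TRIM29 (0.362 against 1.99 CPM) and TP63 were lower. In bulk RNA, more cells that transcribe a gene and more RNA per cell cannot be told apart.

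Of the 53 genes, 33 have an entry in RefSeq's promoter table (GRCh38.p14). The 250 bases before the start were searched on both strands for TGANTCA, the letters that AP-1 (FOS and JUN dimers, which act below ERK) binds, and for the TATA box as TATAAA. These 2 motifs do not overlap. TGANTCA stood in 5 of 33 promoters (15.2%), against 6.57% of all 35116 promoters, and TATAAA in 15 of 33 (45.5%), against 10.7%. Those of FLG, IVL and LOR are shown because these genes are main envelope or filament-bundling proteins and hold TGANTCA (chr1:152325240-152325489 on the minus strand, chr1:152908296-152908545 and chr1:153259437-153259686 on the plus strand), with the motif 79, 123 and 48 bases before the start. KRT3, KRT75 and LCE1F (chr12:52796118-52796367 and chr12:52434372-52434621 on the minus strand, chr1:152774890-152775139 on the plus strand) are shown as examples of genes that were high off drug. Among these 3 only KRT3 holds TATAAA and none holds TGANTCA. KRT79 and DSP had higher means at week 2 off drug than KRT3 (46.1 and 57.8 against 14.2 CPM). Their promoters are not shown and hold neither motif. Capitals mark the motifs, and a match is a description of these letters, not of binding. The sequences run from 5′ to 3′ towards the start.
FLG: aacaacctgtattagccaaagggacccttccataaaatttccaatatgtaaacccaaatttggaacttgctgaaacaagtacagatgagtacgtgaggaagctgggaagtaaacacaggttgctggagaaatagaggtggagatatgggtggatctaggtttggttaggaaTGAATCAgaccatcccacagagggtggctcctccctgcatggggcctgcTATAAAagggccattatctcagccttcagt
IVL: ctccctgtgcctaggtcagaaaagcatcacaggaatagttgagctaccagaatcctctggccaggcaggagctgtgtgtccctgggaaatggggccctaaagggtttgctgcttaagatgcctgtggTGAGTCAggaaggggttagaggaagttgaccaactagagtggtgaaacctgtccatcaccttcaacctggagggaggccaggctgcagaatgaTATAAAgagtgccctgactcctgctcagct
LOR: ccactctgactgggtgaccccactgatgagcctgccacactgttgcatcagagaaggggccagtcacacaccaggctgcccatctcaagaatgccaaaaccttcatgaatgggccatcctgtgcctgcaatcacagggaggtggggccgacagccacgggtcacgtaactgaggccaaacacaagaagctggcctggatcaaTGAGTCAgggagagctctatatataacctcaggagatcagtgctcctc
KRT3: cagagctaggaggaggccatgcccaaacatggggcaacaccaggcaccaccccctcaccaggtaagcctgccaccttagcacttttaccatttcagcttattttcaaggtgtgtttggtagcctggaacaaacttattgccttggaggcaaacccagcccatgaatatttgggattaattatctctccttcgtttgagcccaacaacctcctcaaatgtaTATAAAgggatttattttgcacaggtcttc
KRT75: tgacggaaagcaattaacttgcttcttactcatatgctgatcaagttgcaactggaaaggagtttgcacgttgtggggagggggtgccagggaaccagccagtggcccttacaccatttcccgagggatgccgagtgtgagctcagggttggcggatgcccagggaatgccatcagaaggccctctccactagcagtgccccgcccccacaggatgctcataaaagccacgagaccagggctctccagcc
LCE1F: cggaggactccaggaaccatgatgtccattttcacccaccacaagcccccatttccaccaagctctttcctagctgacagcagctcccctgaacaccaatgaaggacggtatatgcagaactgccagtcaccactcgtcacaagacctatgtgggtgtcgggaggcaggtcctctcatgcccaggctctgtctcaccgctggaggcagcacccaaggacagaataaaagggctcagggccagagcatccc

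edgeR's quasi-likelihood test could be run for 49 of the 53 genes, since KRT27, PKP1, SPRR3 and LCE1A did not pass its filter on low counts. A gene could enter through the groups where it was high: 19 of the 53 genes fall under 30 counts without the 2 off-drug groups, and 5 without their highest group. Counts of calls are therefore led by the genes that reach 30 counts outside the compared groups, leaving out both off-drug groups wherever either is compared. A call is an adjusted p under 0.05 over all 20494 tested genes. For a gene that does not reach 30 counts elsewhere the levels and folds are a description, and a p is given only where a call was lost under another setting.

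Taking the drug away for 7 days was followed by transcripts of many stratified-epithelium genes that week 1 cells barely held. The 32 keratins summed to 230 to 294 CPM at week 2 off drug, against 75.8 to 83.3 CPM at week 1. KRT18, a keratin of simple epithelia, is part of these sums, at 96 and 33 CPM in means. The keratin sum was 105 to 127 CPM in untreated BRAF-V600E cells and 143 to 186 CPM at week 2 continuous. The 16 envelope genes summed to 112 to 138 CPM off drug, against 8.4 to 10.7 CPM at week 1. Of 32 tested genes that reach 30 counts elsewhere, 19 were higher and 6 lower off drug, with a median log2 change of 1.62. Of all tested genes 27.7% were higher and 26.8% lower, with a median of -0.01. Over all 49 tested genes, 36 were higher and 6 lower, a count that the choice of genes favours. Without the 4 libraries that stood apart, 40 genes were called in place of 42. In the same off-drug groups the BRAF transcript was higher too, at 3232 CPM at week 2 and 3404 CPM at week 4, against 974 CPM at week 3 back on drug and 788 CPM at week 1. Markers of other cell types moved as well: the 4 endothelial markers summed to 17.9 to 20.6 CPM at week 2 off drug, against 0.694 to 1.32 CPM at week 1, and all 3 that could be tested were higher: KDR (14.2 against 0.36 CPM), PECAM1 (2.78 against 0.0578 CPM) and VWF (2 against 0.531 CPM). CDH5 was at 0 in both groups. The 5 leukocyte markers summed to 5.11 to 5.78 CPM off drug, against 0.165 to 0.721 CPM, mostly LYZ, with CD3E at 0 off drug. The 6 fibroblast markers summed to 15 to 16.8 CPM off drug, against 250 to 262 CPM at week 1, and the 8 melanocyte markers to 591 to 620 CPM, against 831 to 897 CPM. The part of these markers and of the epithelial ones above in the keratin result was not tested.

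**Figure D1:**
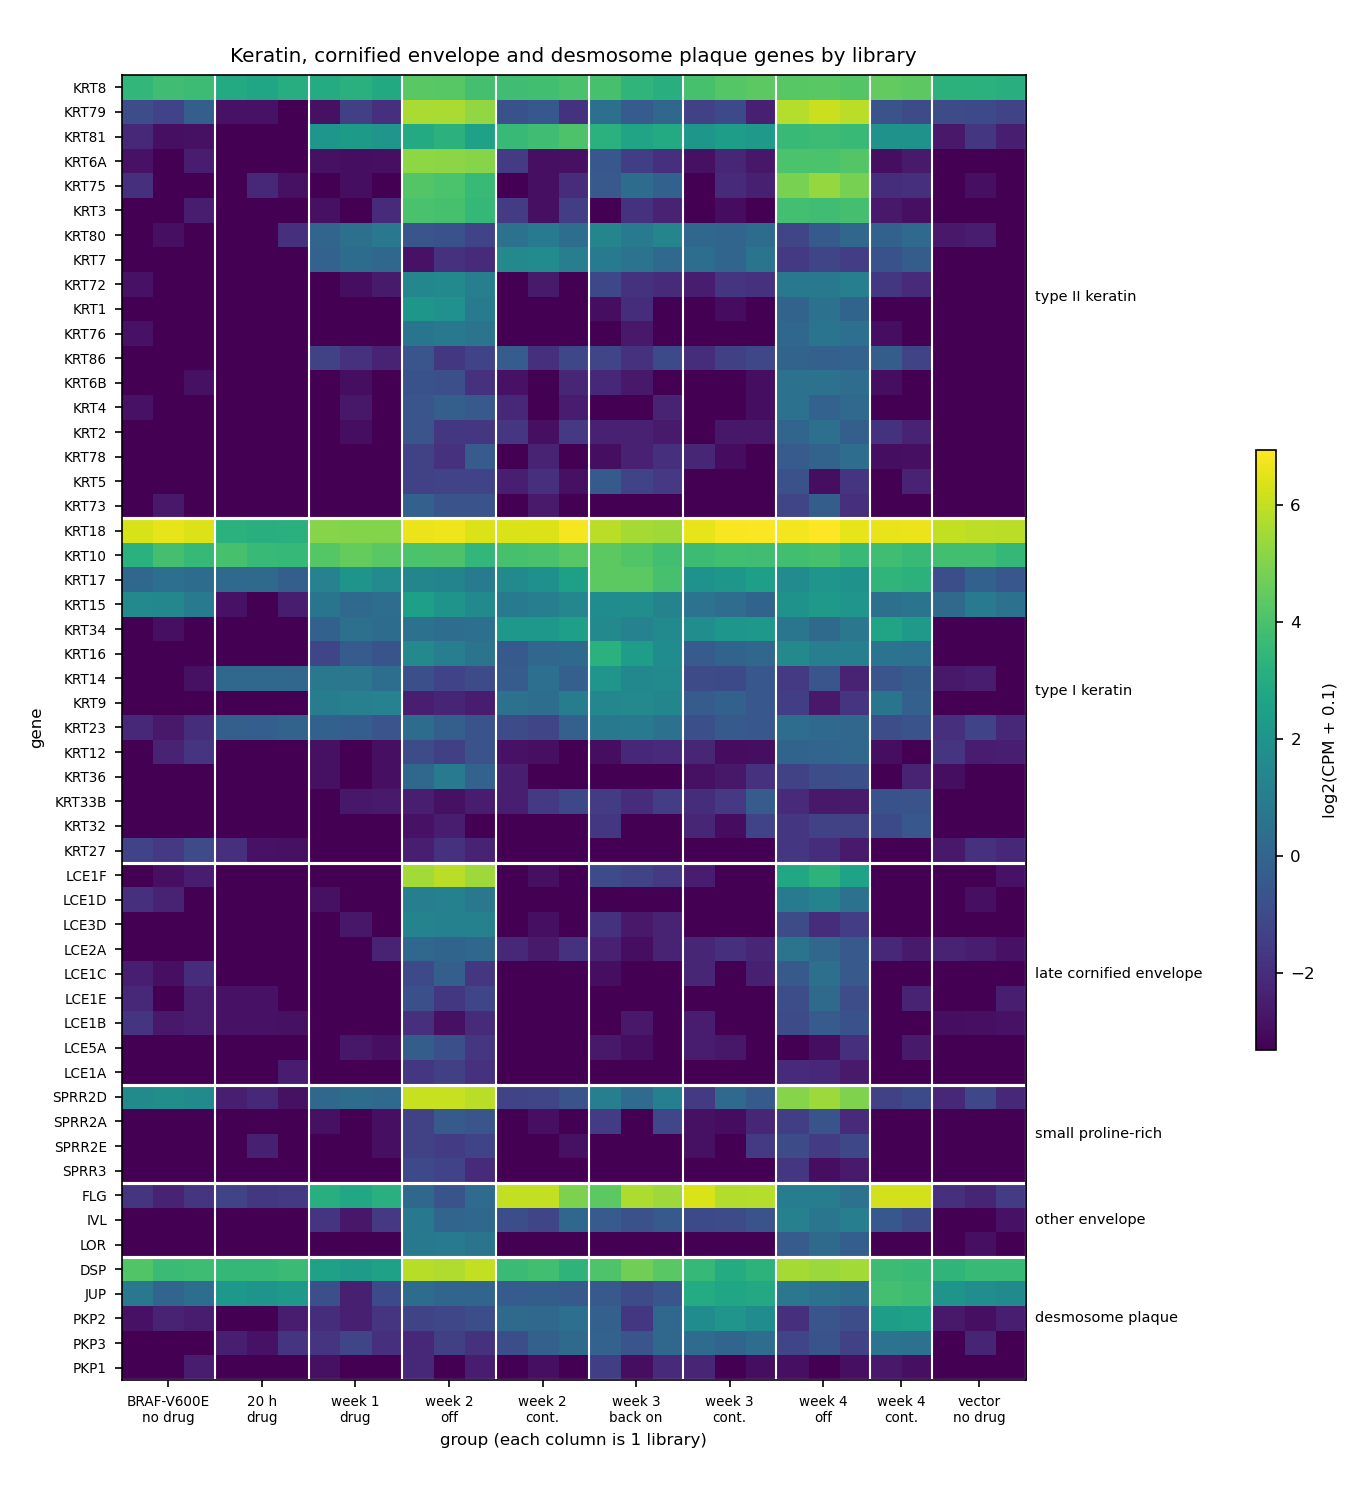
Level of each of the 53 genes, as log2(CPM + 0.1), in each library (columns, by group) with genes grouped by family (rows). The off-drug columns at week 2 and week 4 hold the brightest cells for KRT79, KRT6A, KRT75, KRT3, LCE1F and SPRR2D, and the later on-drug columns for FLG.

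The largest fold rises among keratins were of type II. KRT79, a keratin of hair canals and sebaceous ducts, stood at 49.9, 49.3 and 39.1 CPM at week 2 off drug, against 0.0385, 0.289 and 0.165 CPM at week 1. All off-drug libraries lay far above all week 1 libraries, a 281-fold difference of means (SE of the log2 change 0.27, adjusted p = 5.32e-21). KRT6A, the keratin of wounded epidermis, stood at 36.8, 35.8 and 34 CPM off drug, against 0.0385, 0.0289 and 0.0329 CPM at week 1. Those week 1 values are 1 count per library, and 2855 counts off drug against 3 give a ratio of 1075 (95% counting interval 368 to 5217, adjusted p = 2.58e-19). KRT75, a keratin of the hair follicle's companion layer, stood at 18.1, 16.2 and 12.3 CPM off drug and had 1 count in all of week 1 (ratio 1398, counting interval 250 to 55246). KRT3, which corneal epithelium uses, stood at 16, 15.3 and 11.2 CPM off drug, against 0.0385, 0 and 0.132 CPM at week 1 (250-fold). Counting intervals and floors cover counting error only. A group with 1 count owes its fitted log2 to 1 library: that of KRT75 was 9.98, or 11.79 without week 1 replicate 2.

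Lower down, KRT1, the type II keratin of the upper epidermis, stood at 4.28, 3.58 and 1.85 CPM at week 2 off drug and had no count at week 1, so it was at least 96-fold higher by a floor of 3 counts over the group. KRT76, a keratin of the palate, stood at 1.51, 1.68 and 1.43 CPM off drug with no count at week 1 (at least 46.7-fold higher). KRT1 and KRT76 had 7 of 357 and 4 of 241 counts outside the off-drug groups. KRT72, of the hair follicle's inner root sheath, stood at 2.6, 2.82 and 2.02 CPM off drug, against 3 counts in all at week 1 (ratio 74.9, counting interval 25.3 to 366). KRT4, a keratin of wet mucosa, stood at 0.545, 0.751 and 0.627 CPM off drug, and KRT6B, a close copy of KRT6A, at 0.503, 0.465 and 0.174 CPM. KRT4 had 2 counts and KRT6B 1 count in all of week 1. KRT6A and KRT6B are near-identical, so their counts may be partly exchanged. Of the 11 type II keratins that reach 30 counts elsewhere, 8 were higher and 2 lower at week 2 off drug than at week 1. Of all tested genes 27.7% were higher and 26.8% lower. Over all 18 type II keratins, 15 were higher and 2 lower, a count that the choice of genes favours. The 2 that fell were KRT7, a keratin of ducts and glands, and KRT80.

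**Figure D2:**
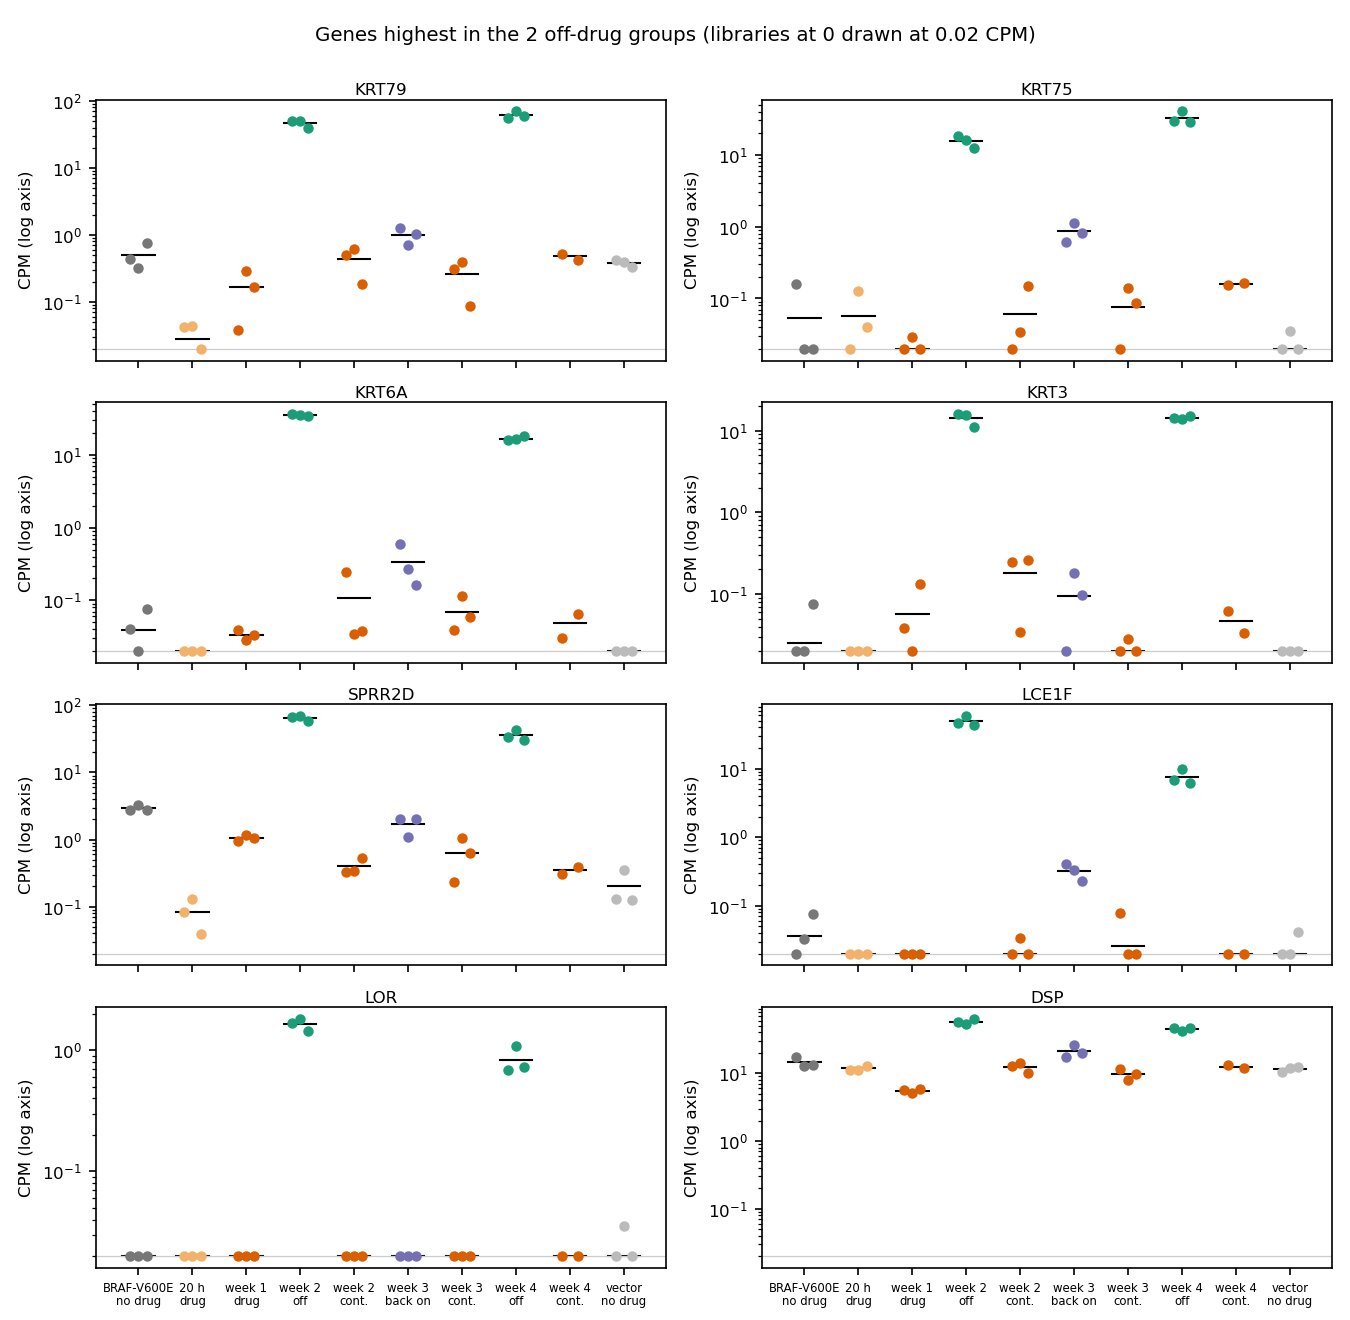
CPM on a log axis in each library (points) with the group mean (line) for 8 genes across the 10 groups, with libraries at 0 drawn at 0.02 CPM. KRT79, KRT75, KRT6A, KRT3, SPRR2D, LCE1F and LOR are highest in the groups off drug, and for DSP the off-drug groups lie above all others with values of 42.6 to 63.7 CPM.

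Of 13 type I keratins tested, 5 were higher and 3 lower at week 2 off drug than at week 1. Among the 12 of them that reach 30 counts elsewhere 4 were higher and 3 lower, near the 27.7% and 26.8% of all tested genes. KRT18 rose 2.91-fold (101, 103 and 83.8 CPM against 33.9, 32.6 and 32.5 CPM, adjusted p = 1.30e-12). Its mean was 96 CPM off drug and 86 CPM in untreated BRAF-V600E cells. KRT15, a basal keratin, rose 3.24-fold (5.45, 3.83 and 2.79 CPM against 1.5, 1.04 and 1.18 CPM, adjusted p = 1.15e-06), and KRT16 rose 3.95-fold (2.72, 2 and 1.46 CPM against 0.347, 0.692 and 0.527 CPM). KRT36, a hair keratin, was the largest rise of this type, at 0.964, 1.72 and 0.836 CPM off drug, against 2 counts in all at week 1 (ratio 53.7, counting interval 14.5 to 450). KRT9, the keratin of palms and soles, fell 24-fold (0.0838, 0.107 and 0.0697 CPM against 1.89, 2.11 and 2.27 CPM, adjusted p = 2.15e-09). KRT14 fell 3.68-fold (0.461, 0.322 and 0.418 CPM against 1.62, 1.59 and 1.22 CPM, adjusted p = 6.76e-05). KRT10 fell 1.38-fold (16.1, 16.9 and 10.9 CPM against 18.5, 22.5 and 19.8 CPM, adjusted p = 0.0121), the smallest change called here.

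To compare the types on a scale per length, CPM were divided by each gene's exon length in kilobases and summed. Without KRT8, the 17 type II keratins summed to 51.3 ± 6.84 CPM per kb (SD, n = 3) at week 2 off drug, against 2.94 ± 0.294 at week 1. Without KRT18 and KRT10, the 12 type I keratins summed to 4.22 ± 0.744 CPM per kb at week 2 off drug, against 3.83 ± 0.48 at week 1. At week 4 off drug the type II sum was 60.8 ± 5.73 and the type I sum 4.83 ± 0.0847 CPM per kb. At week 3 back on drug the type I sum was the higher, with 6.22 ± 1.03 for type II and 13.6 ± 2.39 for type I. In means it was also the higher in every other group outside the off-drug ones except week 2 continuous. There type II stood at 8.92 ± 1.04 and type I at 6 ± 1.2. With KRT10 kept, type I summed to 11.1 ± 2.22 CPM per kb at week 2 off drug and 13.3 ± 1.43 at week 1. These sums were not tested, since the genes were chosen on the same counts.

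**Figure D3:**
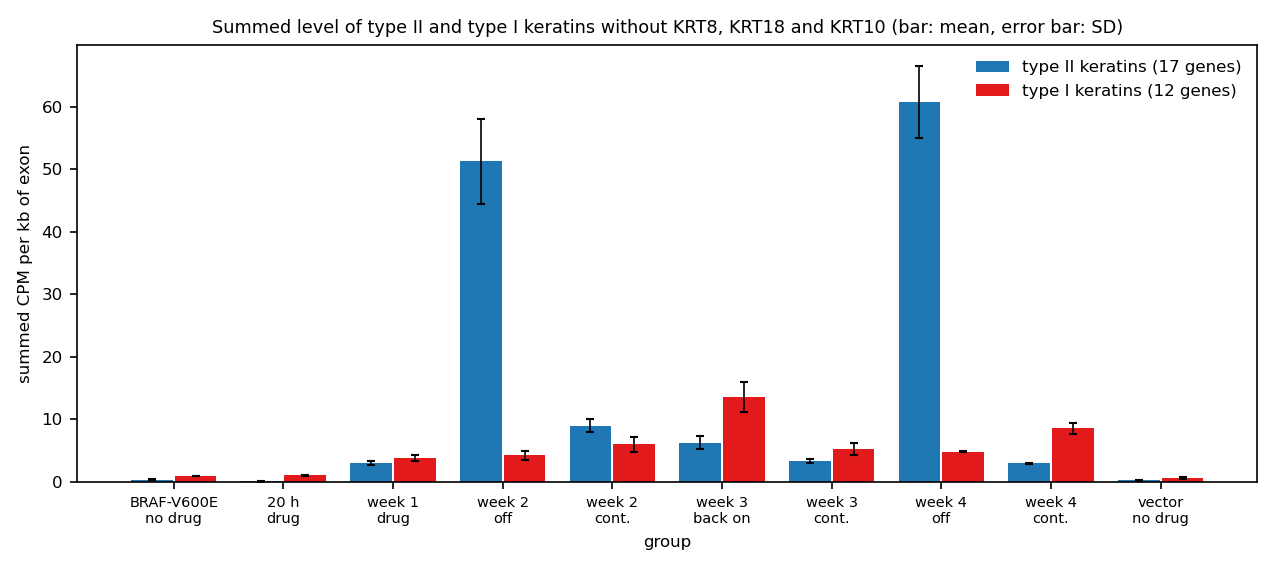
Summed CPM per kb of exon (mean as bars, SD as error bars) of 17 type II keratins without KRT8 and 12 type I keratins without KRT18 and KRT10, by group. Type II bars reach 51.3 and 60.8 in the off-drug groups and at most 8.92 in the other groups, while the highest type I bar is 13.6 at week 3 back on drug.

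Keratins that pair in epithelia were not at equal levels. Off drug at week 2, KRT3 stood at 6.11 ± 1.12 CPM per kb (SD, n = 3) and its corneal partner KRT12 at 0.142 ± 0.0411. KRT6A stood at 12.1 ± 0.485 CPM per kb in those libraries, with its partners KRT16 at 0.832 ± 0.255 and KRT17 at 0.716 ± 0.12. The epidermal pair was the other way round, with KRT1 at 1.3 ± 0.503 and KRT10 at 6.83 ± 1.52 CPM per kb, and the group means of KRT10 lay between 5.6 and 9.45. For the basal pair, KRT5 reached at most 0.0944 ± 0.0511 CPM per kb, at week 3 back on drug, where KRT14 stood at 1.41 ± 0.313. KRT18 exceeded KRT8 in means in every group, and in untreated BRAF-V600E cells KRT18 stood at 26.7 ± 2.22 and KRT8 at 1.82 ± 0.212 CPM per kb. KRT8 is the less certain of these 2: its pseudogene KRT8P12 held 10078 counts over all libraries, against 11678 for KRT8, and reads of such copies can be misassigned. KRT10 overlaps TMEM99, and KRT8 overlaps KRT18, on the opposite strand.

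Of the envelope genes, LCE1F, a late envelope precursor, stood at 46.1, 58.2 and 43.7 CPM at week 2 off drug and at 0 in all 3 week 1 libraries. By the floor it was at least 1500-fold higher (adjusted p = 1.02e-18). SPRR2D, which cross-bridges the envelope, stood at 66.7, 68.5 and 58.3 CPM off drug, against 0.963, 1.15 and 1.05 CPM at week 1, with no overlap (61-fold, log2 5.92 ± 0.21 SE, adjusted p = 2.04e-20). LOR, the main protein of the epidermal envelope, stood at 1.68, 1.82 and 1.43 CPM off drug with no count at week 1 (at least 49.7-fold higher), and 1 of its 210 counts lay outside the off-drug groups. LCE3D stood at 2.31, 2.15 and 2.16 CPM off drug, against 2 counts in all at week 1 (ratio 100, counting interval 27.3 to 832). LCE1D stood at 1.97, 2.15 and 1.64 CPM off drug, against 1 count, and LCE2A at 1.01, 0.894 and 1.01 CPM, against 3 counts. Of the tested LCE and SPRR genes, only LCE1F, LCE2A and SPRR2D reach 30 counts outside the compared and off-drug groups. All of these were higher off drug than at week 1, where 27.7% of all tested genes were higher. Over all tested, the 8 LCE and 3 SPRR genes were all higher, a count that the choice of genes favours. LCE and SPRR2 genes are close copies of each other, so counts may be shared within each family.

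IVL, the scaffold laid down first in the envelope, stood at 1.68, 0.93 and 0.975 CPM at week 2 off drug, against 0.193, 0.0577 and 0.23 CPM at week 1 (7.45-fold higher, adjusted p = 9.45e-06). FLG went the other way: 1.01, 0.536 and 1.11 CPM off drug, against 8.75, 7.07 and 9.18 CPM at week 1, 9.41-fold lower with no overlap (adjusted p = 1.47e-08). FLG overlaps FLG-AS1 on the opposite strand, and whether counting used strand is not given in the sources used here. FLG-AS1 averaged 7.27 CPM at week 2 off drug and 12.5 CPM at week 1.

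Of the desmosome plaque genes, DSP stood at 57, 52.8 and 63.7 CPM at week 2 off drug, against 5.74, 5.05 and 5.82 CPM at week 1 (10.4-fold higher, log2 3.39 ± 0.15 SE, adjusted p = 3.61e-18). JUP rose 3.14-fold (1.13, 0.93 and 0.905 CPM against 0.462, 0.0866 and 0.395 CPM, adjusted p = 5.37e-05). Its off-drug mean of 0.989 CPM was not above that of untreated BRAF-V600E cells (1.25 CPM) or vector cells (3.34 CPM). PKP2 rose 2.61-fold to 0.335, 0.358 and 0.453 CPM, against 0.154, 0.0866 and 0.197 CPM (adjusted p = 0.0304). PKP3 did not pass, at 0.195 against 0.234 CPM in means.

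After 7 days back on drug, genes that were high off drug, such as KRT79 and SPRR2D, were lower and another set, such as FLG and KRT17, was higher. Of 27 tested genes that reach 30 counts elsewhere, 10 were higher and 10 lower at week 3 back on drug than at week 2 off drug, with a median log2 change of 0.26, where 27.8% of all tested genes were higher and 28.5% lower. Over all 49 tested, 10 were higher and 29 lower, a count that the choice of genes favours (37 called in all without the libraries that stood apart). This comparison shares the week 2 off-drug libraries with the first withdrawal and the week 3 libraries with the second, so opposite signs between them are partly built in. KRT79 stood at 1.27, 0.701 and 1.02 CPM back on drug (46.2-fold lower, adjusted p = 1.02e-19) and KRT6A at 0.589, 0.274 and 0.164 CPM (104-fold lower). KRT3 was 151-fold lower, at 0, 0.183 and 0.0985 CPM back on drug (log2 -7.17, or -8.09 without replicate 2 at week 3 back on drug). SPRR2D was 37.6-fold lower, at 2.02, 1.1 and 2.03 CPM, and LCE1F 153-fold lower, at 0.403, 0.335 and 0.23 CPM. LCE1D, LOR, KRT36 and KRT73 had no count back on drug and were at least 60.9, 52.2, 37.6 and 19.4-fold lower. For KRT73 the call was lost with DESeq2 (adjusted p = 0.193). DSP was 2.74-fold lower, at 17.4, 25.9 and 20.1 CPM (adjusted p = 1.03e-10).

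The genes that rose back on drug were mostly type I keratins and FLG. FLG stood at 20.4, 50.5 and 43.6 CPM at week 3 back on drug, against the 0.536 to 1.11 CPM off drug given above (43.1-fold, adjusted p = 2.00e-14), with its lowest value in the library that stood apart. KRT9 rose 30.2-fold, to 2.57, 2.78 and 2.53 CPM (adjusted p = 3.97e-10). KRT7 rose 11.8-fold, to 1.8, 1.4 and 1.05 CPM, against 0.0419, 0.179 and 0.139 CPM off drug. KRT17 stood at 20.5, 20.3 and 15.6 CPM back on drug, against 2.51, 2.4 and 1.81 CPM off drug (8.39-fold higher, adjusted p = 1.29e-13). KRT14 stood at 4.03, 2.68 and 2.95 CPM (8.05-fold higher) and KRT80 at 2.48, 1.74 and 2.43 CPM (4.89-fold higher). KRT16 stood at 9.24, 5.12 and 3.12 CPM, where the library that stood apart was the highest (2.82-fold higher, adjusted p = 1.58e-04). These mean levels of KRT14, KRT16 and KRT17 were the highest of any group. The 3 genes have near-identical stretches and pseudogenes, which held 114 counts for KRT17 and 62 for KRT16.

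**Figure D4:**
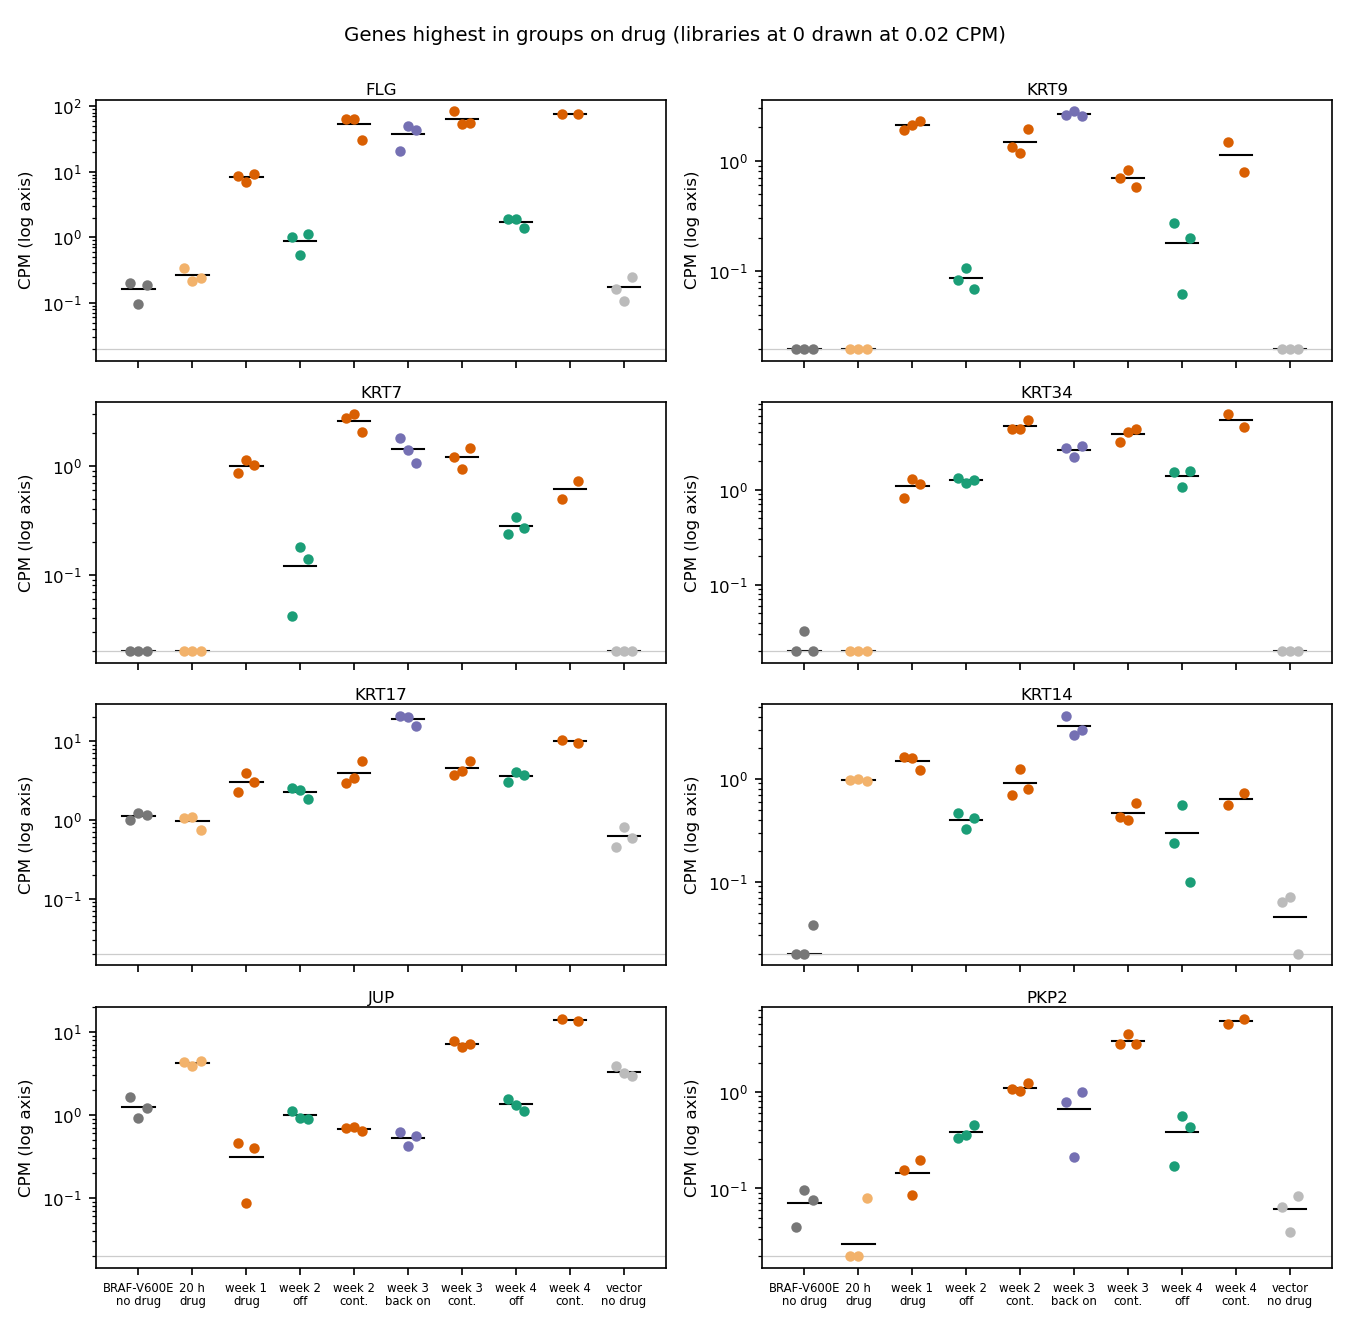
CPM on a log axis in each library (points) with the group mean (line) for FLG, 5 keratins, JUP and PKP2 across the 10 groups, with libraries at 0 drawn at 0.02 CPM. FLG, KRT9 and KRT7 lie higher at every time from week 1 on drug than in the off-drug groups, KRT17 and KRT14 peak at week 3 back on drug, and JUP and PKP2 reach 13.4 CPM and 5.08 CPM or more at week 4 continuous.

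The second withdrawal, at week 4, was followed by higher levels of most of the genes that rose at the first. It shares no library with the first. Of 27 tested genes that reach 30 counts elsewhere, 12 were higher and 8 lower at week 4 off drug than at week 3 back on drug, with a median log2 change of 0.54, where 23.1% of all tested genes were higher and 22.3% lower. Over all 49 tested, 30 were higher and 8 lower. KRT79 stood at 54.9, 69.5 and 59.3 CPM at week 4 off drug (61.4-fold higher, log2 5.94 ± 0.21 SE, adjusted p = 2.55e-20) and KRT75 at 29.6, 40.1 and 28.7 CPM, against 0.62, 1.13 and 0.821 CPM back on drug (38.3-fold higher, adjusted p = 1.13e-16). KRT6A stood at 16.1, 16.4 and 18.1 CPM (49.2-fold higher) and KRT3 at 14.4, 13.7 and 15.1 CPM (153-fold higher, log2 7.19, or 8.13 without replicate 2 at week 3 back on drug). SPRR2D stood at 33.8, 43.5 and 30.9 CPM (21-fold higher) and LCE1F at 6.92, 9.86 and 6.1 CPM (23.6-fold higher). LCE1D, LOR and LCE1E had no count back on drug and were at least 59.1, 26.8 and 21.2-fold higher off drug. LCE1C had 79 counts off drug, against 1 (ratio 82.4, counting interval 14.4 to 3295, fitted log2 5.86, or 7.64 without replicate 1 at week 3 back on drug). DSP stood at 46.7, 42.6 and 46.2 CPM, 2.14-fold higher. FLG was 22.3-fold lower, at 1.87, 1.89 and 1.37 CPM, KRT9 14.7-fold lower and KRT14 10.8-fold lower. The endothelial and leukocyte markers summed to 28.1 to 30.1 CPM and 8.74 to 12 CPM at week 4 off drug, against 0.853 to 1.67 CPM and 0.762 to 1.12 CPM back on drug, and their part was not tested.

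Among the 26 tested genes that reach 30 counts outside all 4 groups of both withdrawals, 13 were higher at the first, 11 at the second and 10 at both, which is 76.9% of the first list and 90.9% of the second. Over all tested genes, 3720 were higher at both, which is 65.6% of the 5671 higher at the first and 78.5% of the 4741 higher at the second. Of 6 lower at the first and 8 at the second, 5 were lower at both. Over all tested genes, 3421 were lower at both, which is 62.3% of the 5495 lower at the first and 74.7% of the 4578 lower at the second. KRT16 was the gene called in opposite directions, higher at the first withdrawal and 2.57-fold lower at the second (2.76, 2.01 and 2.03 CPM at week 4 off drug). The size of the change differed too. In the interaction, the second change minus the first, edgeR called 16 of the 49 genes lower (10 of 26 that reach 30 counts elsewhere) and 0 higher, with 0 higher also at an unadjusted p under 0.05 and with DESeq2, where 7.6% of all tested genes were higher and 9.5% lower. The largest of those called were LCE1F (log2 -8.93), KRT5 (-6.97), KRT1 (-5.59), LCE3D (-5.18), KRT75 (-4.73, adjusted p = 4.52e-04) and KRT6A (-4.30). Of these only KRT75 reaches 30 counts outside the compared and off-drug groups, so the values of the others are a description. The KRT1 call was lost with DESeq2 (adjusted p = 0.49). KRT16 had -3.30 (adjusted p = 1.66e-05) and DSP -2.29 (adjusted p = 4.22e-10). At week 1 LCE1F, KRT5 and KRT1 had 0 counts, KRT75 had 1, LCE3D 2 and KRT6A 3. The sizes of their interactions therefore depend on the small count that edgeR adds. Without week 1 replicate 2 that of KRT75 was -6.54, and without replicate 1 at week 3 back on drug that of KRT6A was -3.65. For KRT75 the second off-drug level was the higher of both, and its level before withdrawal was 0.856 CPM in means at week 3 back on drug, against 0.00962 CPM at week 1.

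**Figure D5:**
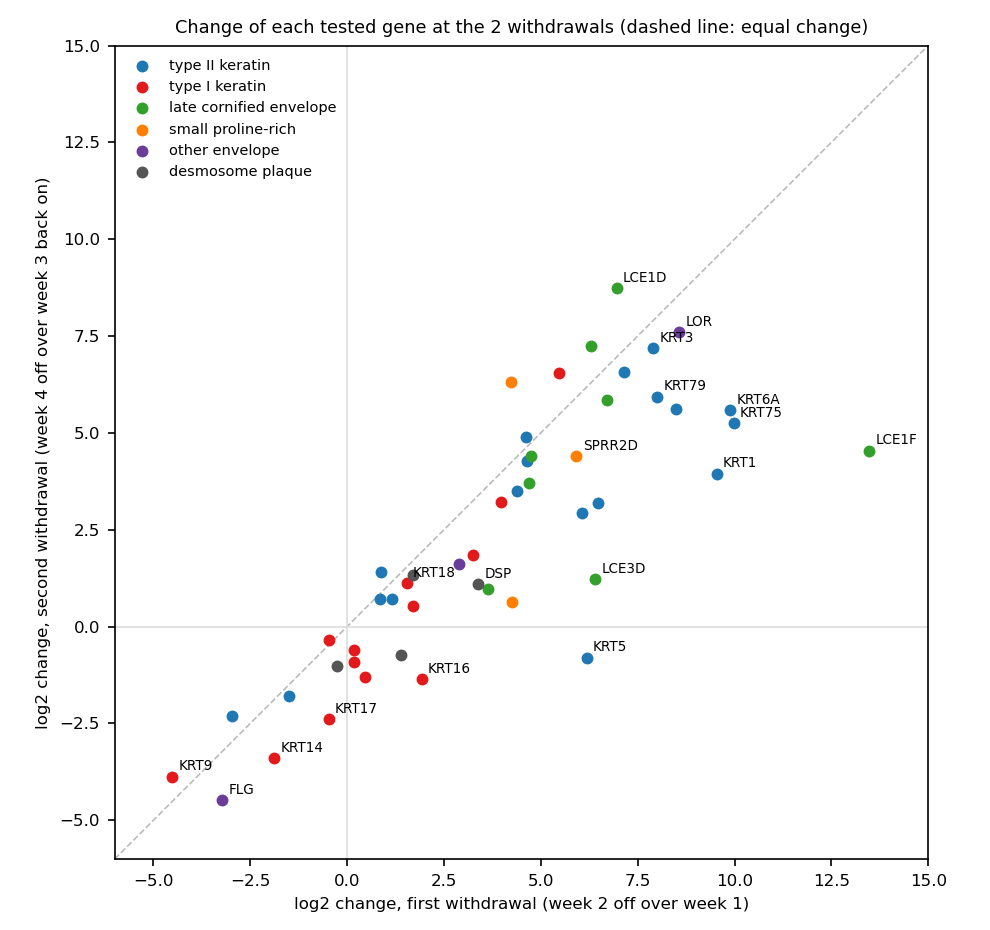
Log2 change of each of the 49 tested genes at the first withdrawal (x axis, week 2 off drug over week 1) and the second (y axis, week 4 off drug over week 3 back on drug), coloured by family, with equal changes on the dashed line. Genes at or near 0 before withdrawal have sizes that depend on the small count edgeR adds, LCE1F (13.47 and 4.54) lies farthest below the line, and KRT16 and KRT5 are above 0 at the first (1.93 and 6.18) and below 0 at the second (-1.36 and -0.80, not called for KRT5).

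Set against cells that had stayed on drug for the same weeks, the off-drug cells again held more of several type II keratins and envelope genes. These comparisons use the same off-drug libraries as the withdrawals above. At week 2, 12 of 31 tested genes that reach 30 counts elsewhere were higher off drug than under continuous drug and 10 lower (29 and 10 of 49), where 27.3% of all tested genes were higher and 27.9% lower. LCE1F had 3984 counts off drug, against 1 under continuous drug (ratio 3986, counting interval 715 to 157475, fitted log2 11.53, or 13.48 without week 2 continuous replicate 2). KRT6A was 335-fold higher (log2 8.42, or 9.82 without week 2 continuous replicate 1), with 0.247, 0.0339 and 0.0374 CPM under continuous drug, and SPRR2D was 162-fold higher. KRT1, LCE1D, LOR and KRT76 had no count under continuous drug and were at least 85, 51.4, 44 and 41.4-fold higher. FLG was 59.7-fold lower off drug, against 64.1, 64.3 and 30.3 CPM under continuous drug, with the lowest value in the library that stood apart. KRT81, a hair keratin, was 1.84-fold lower off drug (7.63, 9.65 and 5.82 CPM against 12, 13.6 and 16.8 CPM), although it was 1.82-fold higher than at week 1.

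At week 4, 14 of 31 such genes were higher off drug than under continuous drug and 10 lower (30 and 10 of 49), where 26.1% of all tested genes were higher and 25.1% lower. LCE1F, LCE1D, KRT4 and KRT1 had no count in the 2 continuous libraries and were at least 161, 38.9, 22.2 and 21.7-fold higher off drug. The KRT1 call was lost with DESeq2 (adjusted p = 0.0662). KRT6A had 1543 counts off drug, against 3 (ratio 353, counting interval 121 to 1714), and KRT3 1317 against 3 (ratio 301, counting interval 103 to 1463). KRT79 was 129-fold and DSP 3.62-fold higher. FLG was 44.5-fold lower than its 75.9 and 76.5 CPM under continuous drug, and JUP 10.3-fold lower (1.57, 1.33 and 1.13 CPM off drug against 14.4 and 13.4 CPM, adjusted p = 2.36e-14).

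At week 3, cells back on drug after a week without it held more of several keratins than cells kept on drug. They held less of other keratins and less JUP and PKP2. The 32 keratins summed to 113 to 156 CPM back on drug and 140 to 174 CPM under continuous drug. KRT18 (49.9 against 109 CPM in means), KRT8 (11.5 against 18.1 CPM), KRT34 and KRT36 were lower back on drug. Of the 49 tested genes 16 were higher and 8 lower back on drug, where 14% of all tested genes were higher and 14.3% lower, and 20 were called without the libraries that stood apart. KRT75 was 11.3-fold higher back on drug than under continuous drug, at 0.62, 1.13 and 0.821 CPM against 0, 0.141 and 0.0873 CPM (log2 3.30, adjusted p = 2.75e-05, and log2 4.01 without replicate 2 at week 3 continuous). KRT16 was 6.92-fold higher (log2 2.77, or 2.14 without the libraries that stood apart), KRT14 6.88-fold and KRT17 4.21-fold higher. KRT5, the basal partner of KRT14, had 39 counts back on drug and none under continuous drug, at least 13-fold higher (adjusted p = 9.06e-04). JUP was 13.5-fold lower, at 0.62, 0.427 and 0.558 CPM back on drug against 7.83, 6.6 and 7.25 CPM under continuous drug (adjusted p = 1.16e-13). PKP2 was 5.14-fold lower, at 0.775, 0.213 and 0.985 CPM against 3.12, 3.95 and 3.09 CPM. FLG was 1.68-fold lower (adjusted p = 0.0117), with 83.2, 53.9 and 55.7 CPM under continuous drug.

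In cells that had not met the drug before, KRT18, SPRR2D and KRT15 were lower at 20 hours. At week 1 FLG and 11 keratins, 7 of 13 tested type I and 4 of 18 type II, were higher. The keratins KRT15, KRT18, KRT79 and KRT8 were lower at week 1, where 27.5% of all tested genes were higher and 26.7% lower. After 20 hours, 4 of 49 tested genes were higher and 9 lower than in untreated cells, where 28.4% of all tested genes were higher and 25.2% lower. KRT18 stood at 9.33, 8.87 and 8.94 CPM at 20 hours, against 79.4, 93.6 and 85 CPM untreated (9.51-fold lower, log2 -3.25 ± 0.13 SE, adjusted p = 3.01e-19). Its partner KRT8 was 1.68-fold lower (7.65, 6.5 and 8.26 CPM against 10.9, 13.7 and 13 CPM, adjusted p = 1.68e-04). SPRR2D was 35.3-fold lower, at 0.0837, 0.129 and 0.0395 CPM against 2.8, 3.31 and 2.8 CPM untreated (adjusted p = 3.26e-11). KRT15 had 3 counts at 20 hours, against 196 (57.5-fold lower, counting interval 19.4 to 281, fitted log2 -5.70, or -6.54 without 20-hour replicate 3), and KRT79 2 against 41 (18-fold lower, counting interval 4.69 to 154). KRT14 was the largest rise, with 0.962, 0.991 and 0.949 CPM at 20 hours, against 1 count in all untreated libraries (ratio 79.5, counting interval 13.8 to 3185, fitted log2 5.88, or 7.78 without untreated replicate 3). KRT23, a type I keratin, rose 7-fold (57 counts against 9) and JUP 3.38-fold (4.39, 3.88 and 4.43 CPM against 1.64, 0.908 and 1.21 CPM).

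At week 1, 14 of 49 tested genes were higher and 9 lower than untreated, with a median log2 change of 0.75, where 27.5% of all tested genes were higher and 26.7% lower. Keratins that untreated cells barely held led the rises. KRT9 stood at 1.89, 2.11 and 2.27 CPM at week 1 and KRT7, a type II keratin, at 0.848, 1.13 and 1.02 CPM, both with no count untreated or at 20 hours. They were at least 57.6 and 27.7-fold higher than untreated (adjusted p = 7.15e-11 and 4.93e-09). KRT16 had 49 counts, against none (at least 14.8-fold higher, fitted log2 6.95, or 5.31 with the counts of its pseudogenes added). KRT34, a hair keratin, stood at 0.809, 1.3 and 1.15 CPM, against 1 count untreated (ratio 91.3, counting interval 16 to 3641), KRT80 at 0.925, 1.27 and 1.61 CPM, against 1 count (ratio 106, 18.6 to 4213), and KRT14 at 1.62, 1.59 and 1.22 CPM, against 1 count (ratio 121, 21.4 to 4820). Fitted log2 changes were 6.28 for KRT80, or 8.21 without untreated replicate 2, and 6.48 for KRT14, or 8.43 without untreated replicate 3. That of KRT34 was 6.07 and also larger without untreated replicate 2. KRT81 was 66.7-fold higher, at 4.05, 4.7 and 3.95 CPM against 0.12, 0.0324 and 0.0379 CPM (adjusted p = 3.74e-14), and lies across KRT86 on the opposite strand, so the counts of these near-identical hair keratins may be mixed. FLG was 51.4-fold higher than its 0.2, 0.0973 and 0.189 CPM untreated (adjusted p = 7.15e-11). KRT18 was 2.6-fold, DSP 2.63-fold, SPRR2D 2.81-fold and JUP 3.98-fold lower at week 1. Fibroblast markers summed to 250 to 262 CPM at week 1, against 2.8 to 3.34 CPM untreated, mostly COL1A1 (224 against 0.778 CPM), and melanocyte markers to 831 to 897 CPM, against 2368 to 2483 CPM. Their part was not tested.

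The second exposure was compared with the first as an interaction, the change of week 3 back on drug from week 2 off drug minus the change of week 1 from untreated. Of the 25 tested genes that reach 30 counts elsewhere, 3 were higher and 14 lower (3 and 20 of 49), where 23.3% of all tested genes were higher and 25% lower. The 3 higher were KRT17 (log2 1.62 ± 0.34 SE, adjusted p = 1.75e-04), JUP (1.16, adjusted p = 0.0298) and KRT18 (0.44, adjusted p = 0.0249). KRT18 was 1.92-fold lower the second time and 2.6-fold lower the first time. SPRR2D fell further the second time (-3.75 ± 0.35 SE, adjusted p = 1.42e-10), as did KRT79 (-4.04, adjusted p = 1.95e-05). KRT81, which was 66.7-fold higher after the first exposure, stood at 9.21, 6.19 and 7.68 CPM after the second, against 7.63, 9.65 and 5.82 CPM before it (interaction -6.03 ± 0.44 SE, adjusted p = 2.21e-12). Both exposures lasted 7 days, but the starting cells differ, since many of these genes were near 0 before the first and high before the second.

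Between week 1 and week 4 of continuous drug, desmosome plaque genes and FLG rose. Of the 49 tested genes 17 were higher and 4 lower, with a median log2 change of 0.48, where 21.1% of all tested genes were higher and 19.9% lower at week 4 continuous than at week 1. All 4 tested desmosome plaque genes were among the higher. JUP stood at 14.4 and 13.4 CPM at week 4, against 0.462, 0.0866 and 0.395 CPM at week 1 (44.1-fold higher, log2 5.51 ± 0.26 SE, adjusted p = 6.35e-17), and at 0.7, 0.711 and 0.636 CPM at week 2 and 7.83, 6.6 and 7.25 CPM at week 3. PKP2 stood at 5.08 and 5.69 CPM at week 4, 36.9-fold higher, after 1.07, 1.02 and 1.23 CPM at week 2 and 3.12, 3.95 and 3.09 CPM at week 3. PKP3 rose 5.76-fold to 1.39 and 1.32 CPM and DSP 2.25-fold to 13.1 and 11.9 CPM. FLG rose 9.14-fold (adjusted p = 2.92e-11). Among keratins, KRT34 rose 4.98-fold, KRT33B, another hair keratin, 12.4-fold (32 counts against 4) and KRT18 2.99-fold. Fibroblast markers moved in the same groups: they summed to 2182 to 2427 CPM at week 4 continuous, against 250 to 262 CPM at week 1, mostly COL1A1, and to 11.7 to 16.8 CPM in the off-drug groups. Their part was not tested.

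Without drug, many of these genes had no count, which limits what could be called between BRAF-V600E and vector cells. Of the 53 genes, 22 to 24 had a count in each BRAF-V600E library and 20 to 23 in each vector library. Of 49 tested, 4 were higher and 2 lower in BRAF-V600E cells, where 7.04% of all tested genes were higher and 9.92% lower. SPRR2D stood at 2.8, 3.31 and 2.8 CPM in BRAF-V600E cells, against 0.128, 0.353 and 0.126 CPM in vector cells (14.7-fold higher, log2 3.84, adjusted p = 1.36e-09, and log2 4.51 without vector replicate 2). JUP was 2.66-fold lower, at 1.64, 0.908 and 1.21 CPM against 3.9, 3.18 and 2.93 CPM (adjusted p = 1.16e-05). KRT18 was 1.39-fold higher (79.4, 93.6 and 85 CPM against 64.6, 61.2 and 59.5 CPM, adjusted p = 0.00272). The calls of KRT8 (1.36-fold higher, adjusted p = 0.0397) and KRT15 (1.68-fold higher, overlapping groups, adjusted p = 0.0428) were each lost when 1 library was left out, with adjusted p up to 0.15 for KRT8 without BRAF-V600E replicate 2 and 0.215 for KRT15 without vector replicate 1.

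The keratins lie in 2 clusters. On chromosome 12 (GRCh38, GENCODE 29, 52168996 to 52952901) are 19 of them, and on chromosome 17 (40776808 to 41624842) 13. The 16 envelope genes lie in the epidermal differentiation complex on chromosome 1 (152302175 to 153262122). Along chromosome 12 the order of the kept genes is KRT80, KRT7, KRT86 and KRT81, then KRT75, KRT6B, KRT6A, KRT5, KRT72, KRT73, KRT2, KRT1, KRT76, KRT3, KRT4, KRT79 and KRT78, then KRT8 and KRT18. All 13 of the middle stretch from KRT75 to KRT78 were higher at week 2 off drug than at week 1, with log2 changes from 4.39 for KRT2 to 9.98 for KRT75. Of the 4 before it, KRT80 and KRT7 were lower, KRT81 was higher by 0.86 and KRT86 did not pass. After it, KRT8 and KRT18 were higher too, by 1.16 and 1.54, where 27.7% of all tested genes were higher. Most of the 13, namely KRT6B, KRT73, KRT1, KRT76, KRT3, KRT4 and KRT78, miss the count threshold outside the compared and off-drug groups. The choice of genes therefore favours the count of 13, and this order is a description. In the epidermal differentiation complex FLG, at one end of the kept genes, was the envelope gene that fell.

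Several genes that act with these families, among them DSC2, PI3, SBSN and EHF, were also higher off drug. Such partner genes were counted in 5 lists. At week 2 off drug against week 1, where 27.7% of all tested genes were higher and 26.8% lower, 4 of 7 tested desmosome partners were higher and 3 lower. DSC2, a desmosomal cadherin, stood at 7.88 CPM in means, against 0.0984 CPM (log2 6.26, adjusted p = 1.21e-14), while DSG2, another one, fell by 0.80 on the log2 scale. Of 15 tested cornification partners 7 were higher and 2 lower, led by the protease inhibitor PI3 (5.5 against 0.117 CPM), the lipoxygenase ALOXE3 (3.37 against 0.125 CPM) and SBSN (6.41 against 0.401 CPM), with the lipid transporter ABCA12 lower (0.751 against 2.91 CPM). Of 12 tested epithelial regulators 2 were higher and 6 lower. The higher were the ETS factor EHF (5.4 against 0.149 CPM) and PRDM1 (28.8 against 5.87 CPM), and those that fell included TFAP2A (102 against 358 CPM) and KLF4 (18.4 against 33 CPM). TP63, which drives the basal keratinocyte programme, averaged 0.233 CPM off drug, against 0.541 CPM. Of 11 other intermediate filament genes 2 were higher and 4 lower, with NEFL, a neurofilament subunit, at 167 CPM against 30 CPM. Of 10 keratin linkers and anchors 1 was higher, the hemidesmosome collagen COL17A1 (1.09 against 0.0494 CPM), and 3 were lower.

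At week 1 against untreated, where 27.5% of all tested genes were higher and 26.7% lower, 3 of 7 tested desmosome partners were lower, with DSG2 at 29.1 against 65 CPM, and the other 4 did not pass. Of 15 cornification partners 8 were higher and 1 lower, led by trichohyalin, TCHH, an envelope protein of the hair sheath (3.94 against 0.631 CPM). Epithelial regulators were higher in 5 of 12 and lower in 3, with KLF5 at 46.9 against 3.61 CPM, KLF4 at 33 against 3.28 CPM and ESRP1 at 4.04 against 19.1 CPM. Other intermediate filaments were higher in 6 of 11 and lower in 4, and keratin linkers and anchors higher in 5 of 10, with plectin, PLEC, at 2260 against 611 CPM. Vimentin, VIM, stood at 2786 CPM in means at week 1 and 3227 CPM untreated. At week 4 off drug against week 3 back on drug, DSC2, PI3, ALOXE3, SBSN, EHF, PRDM1, NEFL and COL17A1 were higher again, with log2 changes from 1.35 for PRDM1 to 4.92 for PI3. The lists as a whole were mixed there, where 23.1% of all tested genes were higher and 22.3% lower. Of 7 desmosome partners 3 were higher and 3 lower, and of 15 cornification partners 4 and 2. Of 12 epithelial regulators 4 were higher and 2 lower, of 11 other intermediate filaments 3 and 5, and of 10 linkers and anchors 2 and 3.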

How the data were processed

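RNA-seq read counts per gene, not normalized, were deposited by the authors in 1 table of 29 libraries. Per the submitters' processing notes, HTSeq 0.6.1, SAMtools 0.1.18, HISAT2 2.0.3 and Trimmomatic 0.32 were used with the GRCh38 build. The annotation release and the strand setting are not given in the sources used here. Per the labels' protocols, cells were frozen and their RNA extracted after the last time point. Libraries were grouped by their labels.

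From the deposited counts, 1 edgeR 4.0.16 quasi-likelihood model in R 4.3.3 was fitted to all 29 libraries with a term per group, TMM scaling and edgeR's filter on low counts, which left 20494 genes. P-values were adjusted by Benjamini-Hochberg over all of them. CPM use TMM-scaled library sizes. Standard errors are the log2 change divided by the square root of F. In a simulation of week 2 off drug against week 1 on 19239 genes, 25 of 46 simulated 1.5-fold changes were called. So were 37 of 48 at 2-fold, 41 of 47 at 4-fold and 45 of 47 at 16-fold. Of its 156 calls, 8 were false. The simulation changed only a small set of genes, while in the data 27.7% of tested genes were higher and 26.8% lower. These rates may therefore not hold for the data. Gene positions and exon lengths are those of GENCODE 29, promoters those of RefSeq.

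The genes, the lists of partners and markers and the tests were chosen with earlier results of these data known. For each comparison up to 6 called genes with the largest log2 change and a mean of at least 0.5 CPM in either group are named, and for partner lists up to 3 genes a direction with at least 1 CPM. Other named genes were chosen after their values were seen. Alternatives were DESeq2 1.42.0, its size factors, no count filter, the compared libraries alone, added pseudogene counts, a replicate block and each library left out. Leaving out the 4 libraries that stood apart was added after seeing the data.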

Additional observations from a re-analysis of the deposited data

Results flagged for a closer look

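These genes changed by a different amount at the second drug exposure or withdrawal than at the first, by an interaction term in edgeR's model over all 20494 tested genes. Values are log2, the second change minus the first, and those that involve a group at or near 0 counts depend on the small count that edgeR adds. KRT36, KRT3, LCE3D, KRT6A, LCE1F and KRT1 do not reach 30 counts outside the compared and off-drug groups, so their values are a description, given without p.

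For drug exposure (week 3 back on drug from week 2 off drug, minus week 1 from untreated), KRT36 had -10.70 and KRT3 -8.22. LCE3D had -6.80, LCE2A -6.75 (adjusted p = 0.00266), KRT6A -6.54 and IVL -6.16 (adjusted p = 3.86e-04). With 1 library left out at a time, that of KRT3 was -6.72 without week 1 replicate 3 and -10.96 without untreated replicate 3. KRT6A had -5.93 without untreated replicate 2 and -7.43 without untreated replicate 3. LCE3D had -4.21 without week 1 replicate 2, and LCE2A -3.65 without week 1 replicate 3.

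For withdrawal (week 4 off drug from week 3 back on drug, minus week 2 off drug from week 1), LCE1F had -8.93, KRT1 -5.59 and LCE3D -5.18. KRT75 had -4.73 (adjusted p = 4.52e-04), KRT6A -4.30 and KRT16 -3.30 (adjusted p = 1.66e-05). Without week 3 on replicate 2 that of KRT1 was -3.84, and without week 1 replicate 2 those of KRT75 and LCE3D were -6.54 and -7.76.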

How the results depend on the processing

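Of the counts of called genes under the alternatives, 157 stayed within 1.5 times the main count and 4 did not, and of the named changes 933 kept their direction and side of the threshold, 19 lost the call and 0 reversed. For BRAF-V600E against vector 6 genes were called, and 3 to 5 when 1 library was left out (3 without vector replicate 1, vector replicate 3 or BRAF-V600E replicate 2). At 20 hours 13 were called, and 8 with the compared libraries alone, where only 10 of the genes passed the filter. With a replicate block the calls in the 12 comparisons, in the order BRAF-V600E, 20 hours, week 1, week 4 continuous, the first withdrawal, the return to drug, the second withdrawal, weeks 2, 3 and 4 against the continuous arm and both interactions, were 5, 11, 23, 20, 42, 40, 39, 40, 23, 39, 23 and 15. The replicate numbers share no stated culture or day. Deviations of log CPM from the group mean correlated at -0.214 to 0.112 between same-numbered libraries of compared groups. Calls lost beyond those in the results were the interactions of KRT3 (adjusted p = 0.0832) and LCE2A (adjusted p = 1) at the return to drug without week 1 replicate 3, of LCE3D there without week 1 replicate 2 (adjusted p = 1), and of KRT1 at withdrawal with DESeq2 (adjusted p = 0.49), without week 3 on replicate 2 (adjusted p = 0.306) or without any 1 week 1 library (0.0562 to 0.068). The cause was not tested. Few counts in a group limit the precision of fold changes from it.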
